A study of Arabidopsis thaliana with 32 samples.

Results

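The 77 nuclear genes described here had a clear 24 h rhythm in continuous light and a small 24 h component in long days. They were chosen by their own rhythms. A gene's value was the summed FPKM (sequenced fragments per unit of transcript length and of library size) of its annotated transcripts, moved to log2(FPKM + 1) and set against the library median. A cosine and a sine curve with a period of 24 h were fitted by least squares in each light regime. Members had a fitted peak-to-trough range of at least 0.7 log2 units and an R squared of at least 0.6 in continuous light, and a range under 0.4 in long days. They were 77 of the 11357 nuclear loci with a mean of at least 5 FPKM in both tables (0.678%), and 77 of the 855 loci that met the continuous-light criteria (9.01%). Of those 855, 632 had a range of at least 0.7 in long days too and serve here as the loci that cycled in both regimes, and 146 lay between 0.4 and 0.7.

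Arabidopsis thaliana seedlings of the wild-type accession Col-0 were raised at 24 °C for 8 days in long days, with 16 h of light and 8 h of darkness. They were then either moved to continuous light or left as they were. The treatment protocol gives 2 more days for this and the series' design text gives 1, and the libraries span 2 days: 1 library was made from total RNA every 3 h from 2 to 47 h, giving 16 libraries per regime. Hours count from dawn, or in continuous light from the time dawn would have come, and the libraries at 17, 20, 23, 41, 44 and 47 h were dark in long days. No transgene, mutant or treatment other than light was involved, and every time point is a single library.

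The plant clock is a set of transcription factors that repress and activate each other in turn, so that it keeps time when light no longer changes. In continuous light a daily rhythm can therefore come from the clock. In a light and dark cycle the same genes also respond to dusk, dawn, sugar and photoreceptor signals, which can add to a clock rhythm or run against it. Known routes from clock to gene include the evening element, bound by morning MYB factors such as CCA1 and LHY, and the G-box, bound by bHLH and bZIP factors such as the PIFs and HY5.

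The choice of members fixes their large range in continuous light and their small range in long days, so these are given as a description with no test. Ranges in continuous light ran from 0.7034 to 4.085 log2 units with a median of 0.889, and 23 members reached 1. Standard errors of the range had a median of 0.1466 in continuous light and 0.219 in long days. For 35 members the long-day range plus 2 standard errors stayed under 0.7, and for the other 42 it did not. For those 42 the scatter between libraries leaves room for a range as large as the one asked of continuous light, so "cycling in continuous light only" holds for the fitted values rather than for each gene. The 3 members just inside the limit of 0.7 were FDH (0.7034), AT1G80180 (0.7043) and PGN (0.7071), and the 3 loci just outside were RLK902 (0.699), ILL6 (0.6984) and AT5G11420 (0.6981). At the limit on R squared PGN (0.6003), AT5G19190 (0.6035) and SOT12 (0.6078) were inside and AT3G27570 (0.592), AT3G19850 (0.5912) and AT2G04965 (0.591) were outside. At the long-day limit AT5G22020 (0.3997), AT3G56360 (0.3973) and the bZIP gene BZIP61 (0.3905) were inside. BZIP34, a bZIP gene closely related to BZIP61, was just outside at 0.4035, followed by AT1G25230 (0.4039) and PWP2 (0.406).

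**Figure D1:**
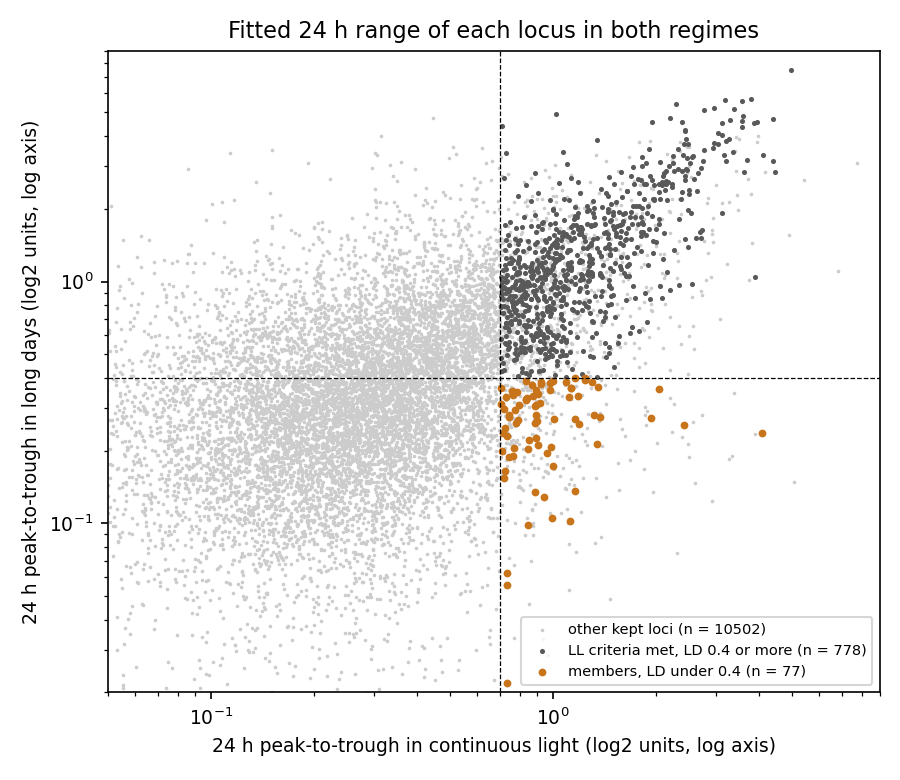
Fitted 24 h peak-to-trough range of each kept locus in continuous light (x axis) and long days (y axis), in log2 units on log axes; dashed lines mark 0.7 and 0.4, and loci beyond the axis limits are not drawn. The 77 members (orange) form the lower edge of a cloud of 855 loci in which a larger range in continuous light mostly goes with a larger range in long days.

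Stretches upstream of a few members show the clock and light motifs that the 250 bases before the annotated start hold, which the choice of members did not use. The evening element (AAAATATCT, on either strand) was in 3 members, and all 3 are shown. The other sequences are those of the member with the largest range for the morning element (CCACAC), the G-box (CACGTG) and the site II motif bound by TCP factors (TGGGCC). Each stretch of 100 bases runs 5′ to 3′ on the gene's strand, with every match of its motif on either strand in capitals, from the RefSeq TAIR10.1 genome. They lie at chr3:22453623-22453722 (minus strand) for TTN1, chr3:22142729-22142828 (plus) for AT3G59940, chr5:3430505-3430604 (minus) for CBSX3, chr2:7954801-7954900 (minus) for HBI1, chr3:20896083-20896182 (plus) for AT3G56360 and chr5:3595162-3595261 (minus) for HY5.
TTN1: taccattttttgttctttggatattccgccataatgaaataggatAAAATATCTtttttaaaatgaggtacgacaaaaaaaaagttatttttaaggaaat
AT3G59940: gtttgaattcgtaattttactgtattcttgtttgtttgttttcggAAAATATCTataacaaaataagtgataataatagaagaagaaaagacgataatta
CBSX3: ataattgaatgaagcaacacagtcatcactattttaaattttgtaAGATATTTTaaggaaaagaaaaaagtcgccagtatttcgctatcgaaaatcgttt
HBI1: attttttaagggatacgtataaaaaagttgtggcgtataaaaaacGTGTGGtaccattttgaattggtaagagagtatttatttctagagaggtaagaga
AT3G56360: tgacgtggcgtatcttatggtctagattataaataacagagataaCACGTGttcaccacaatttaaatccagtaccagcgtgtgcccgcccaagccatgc
HY5: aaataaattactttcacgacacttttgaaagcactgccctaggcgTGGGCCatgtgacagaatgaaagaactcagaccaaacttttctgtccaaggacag

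Among promoters of the same length, the evening element was in 3.9% of members, 2.63% of all kept loci and 8.86% of the loci that cycled in both regimes. The CCA1-binding site (AAAAATCT) was in 2 members, CYP81D5 and PGN (2.6%), against 7.23% of all kept loci and 8.54% of those cycling in both. The G-box was in 8 members (10.39%, against 8.2% and 14.4%), and the morning element in 3 (3.9%, against 6.1% and 8.86%). The telo-box (AAACCCTA), frequent before ribosomal protein genes, was in 3 members (3.9%, against 3.5% and 1.27%), of which the pectin lyase-like gene AT4G23820 had the largest range. Site II was in 13 (16.88%, against 18.78% and 11.87%), HY5 among them. The GATA motif (GATAAG), HBI1 first by range, was in 10 members (12.99%, against 12.78% and 16.77%) and the AC element (ACCTACC) in 1, AT1G68660 (1.3%, against 1.22% and 1.9%). The W-box core (TTGAC) was in 41.56% of members and the TATA box (TATAAA) in 51.95%, against 43.95% and 45.82% of all kept loci and 40.66% and 44.15% of the loci cycling in both, and the octanoyltransferase gene AT5G12240 was first by range for both. The TATA box and the telo-box were more frequent in members than in either set, and the morning element and the CCA1-binding site were rarer. For the other motifs the members' share lay between that of all kept loci and that of the loci cycling in both. A single member is 1.3% of the 77, so the shares of the rarer motifs rest on very few genes. These are matches of letters and counts over few genes, with no test.

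Facts of the libraries that touch every value are few. The 16 continuous-light libraries each summed to 578473 to 622006 FPKM and the 16 long-day ones to 569534 to 587307, and read depth is unknown. As a check of the seedling label, 18 root marker genes summed to 2504.9 to 3824.5 FPKM in the continuous-light libraries and 2250.3 to 4018.6 in the others. The sum over 13 green shoot marker genes was 9070.7 to 18173.0 and 5415.3 to 15057.4 FPKM in the same order, and none of these markers was at 0. The 2 tables were assembled and normalised separately, so levels between regimes are set side by side with no test. In bulk samples of this kind fewer cells of a type and less RNA per cell cannot be told apart. Nothing says whether the seedlings of each library were grown apart, so the p-values below reflect the scatter among libraries, which may be partly technical.

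Peaks of members in continuous light were most frequent late in the subjective night. The peak time was not part of the rule. It fell between 20 and 24 h in 27 members (35.1%), against 129 of the 632 loci that cycled in both regimes (20.4%). Between 4 and 8 h it fell in 17 members (22.1%) against 83 (13.1%), and between 0 and 4 h, the fullest window of the loci cycling in both, in 11 (14.3%) against 191 (30.2%). The windows from 8 to 12 h and from 12 to 16 h held 10 members each, against 105 of the loci cycling in both (16.6%), and that from 16 to 20 h held 2. The median standard error of a peak time was 0.64 h. For what follows, 39 members whose peaks lay from 19.63 h through dawn to 2.324 h are called night-peaking, and 37 with peaks from 4.881 to 14.94 h are called day-peaking, a division made at gaps in the peak times after they were seen. The thylakoid gene AT4G38100 (CURT1D), at 17.68 h, was in neither. The name night-peaking is thus a short one. It also covers the 11 members that peaked between 0 and 4 h, after subjective dawn, and leaves out AT4G38100, which peaked in the subjective night.

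**Figure D2:**
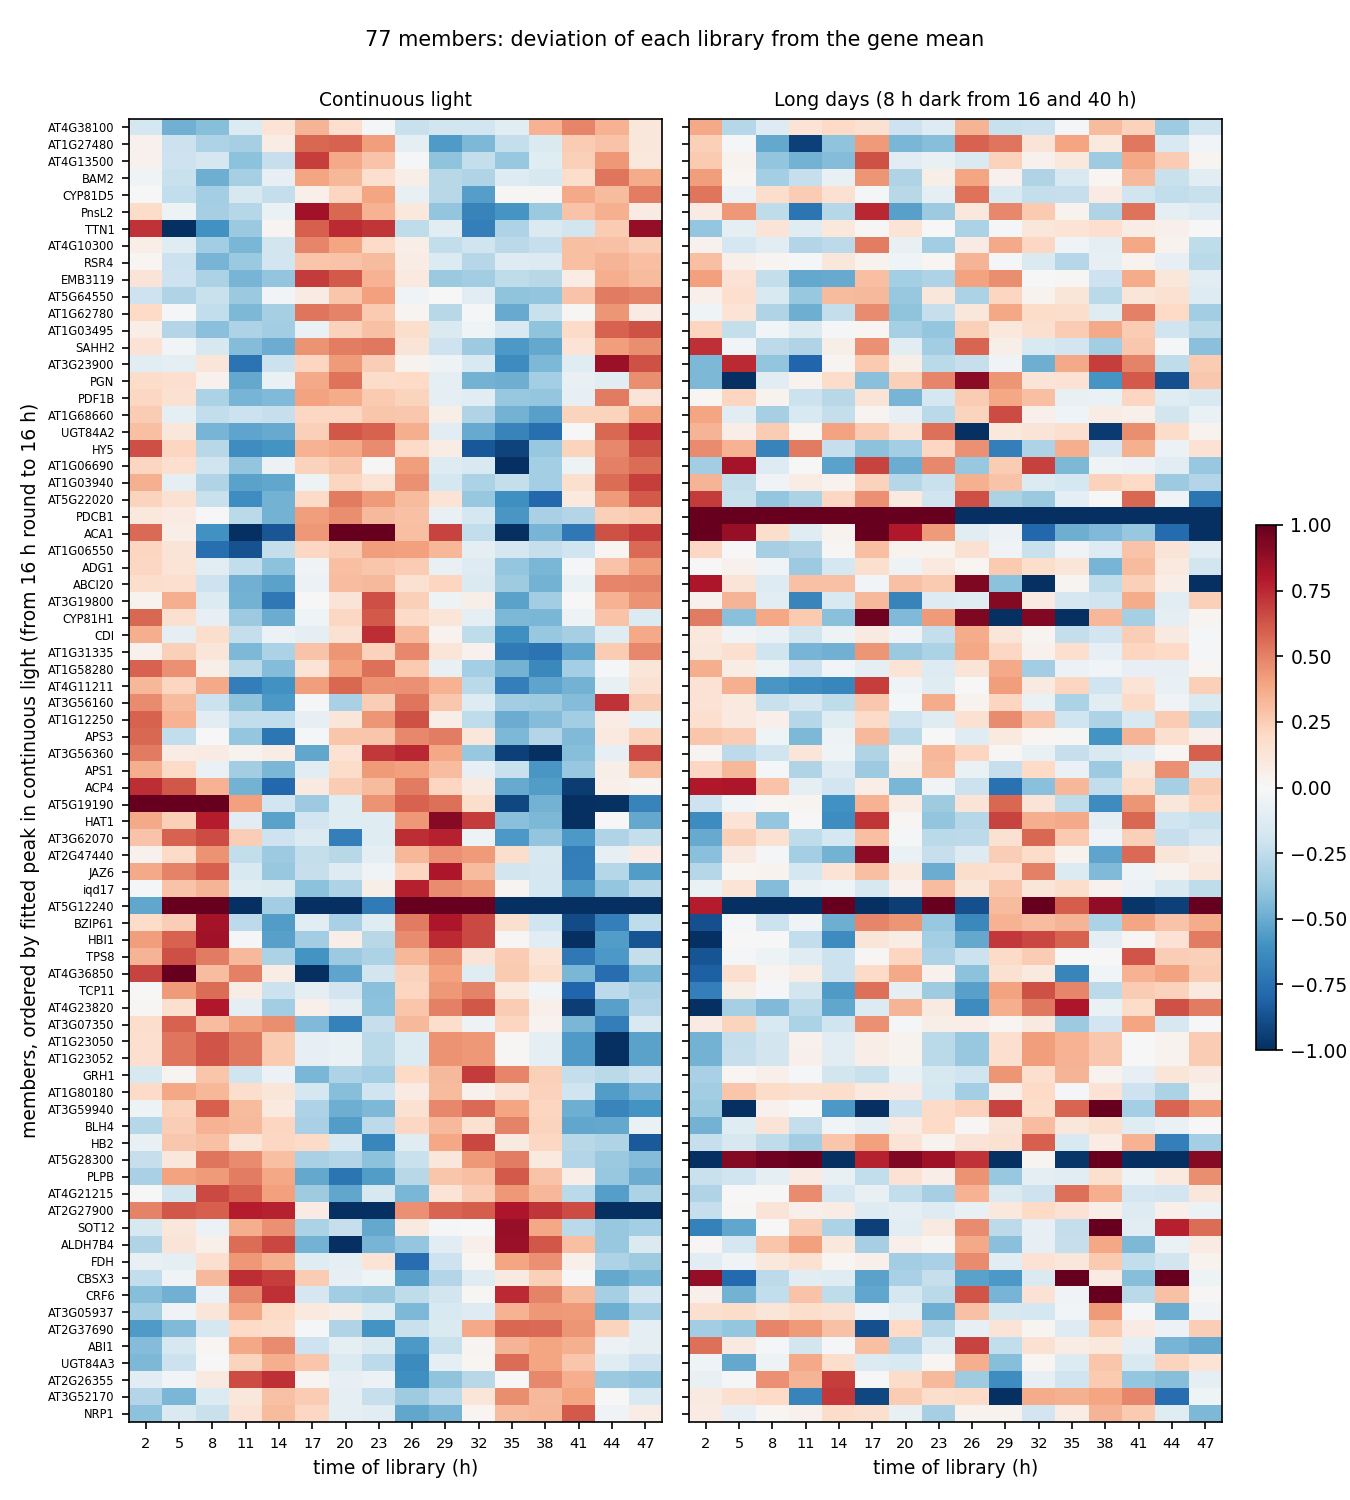
Deviation of each library (columns, h) from the gene's mean in log2 units (colour, limited to ±1) for the 77 members in continuous light (left) and long days (right), ordered from top to bottom by fitted peak time starting at 16 h. The diagonal bands on the left recur on both days; on the right many rows have no such band, and several show single raised columns at 17 and 41 h or low ones at 2 and 26 h.

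Among regulators of light responses, the bZIP factor HY5, which promotes seedling greening and is stabilised in light, was a member. HY5 (AT5G11260, chromosome 5, 3593335 to 3595073, minus strand) was at 6.19 to 19.8 FPKM in continuous light with a median of 13.9, and at 5.59 to 15.7 with a median of 11.2 in long days. In continuous light its 6 libraries of the subjective night were between 15.5 and 19.8 FPKM, above all 6 libraries at 8, 11, 14, 32, 35 and 38 h, which were at most 9.93. In long days high and low values alternated, with 15.7 FPKM at 11 h, 7.74 at 17 h and 5.59 at 29 h. The fitted range was 1.34 ± 0.155 (standard error) with a peak at 22.7 ± 0.442 h in continuous light, and 0.21 ± 0.306 in long days. In the long-day table HY5 lies in an assembled gene merged with a neighbour, whose other transcripts averaged 39.5 FPKM. With all transcripts of that gene summed HY5 was no longer a member, and the part of transcript assignment in the HY5 values was not tested. Of the 21 light signalling genes kept, 8 met the continuous-light criteria and HY5 was the member. Over all loci that met these criteria 9.01% were members. A related photoreceptor-like gene, PLPB, which encodes a protein with PAS and LOV domains, ranged from 8.73 to 23.6 FPKM in continuous light, against 20.3 to 41.6 in long days. Its fitted range was 1.16 ± 0.12 with a peak at 9.728 h, and transcripts assembled at its locus added 19.01 FPKM on average in long days.

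Of the clock genes, which drive the rhythm itself, only the gene annotated as TCP11 among 21 morning and evening clock genes kept was a member. This gene (AT5G08330, also named TCP21 and CHE, CCA1 HIKING EXPEDITION) encodes a TCP factor known to repress CCA1. It was at 13.7 to 34.1 FPKM (median 23.3) in continuous light, against 14.4 to 36.2 (median 23.7) in long days, so its level overlapped fully between the regimes. In continuous light it peaked at 6.86 ± 0.592 h with a range of 0.88 ± 0.137. In long days its lowest values were 14.4 at 2 h and 15.7 at 26 h, and its highest were 36.2 at 17 h on the first day and 34.8 at 32 h on the second. All 9 morning clock genes kept, and 9 of the 12 evening ones, had a range of at least 0.7 in both regimes, with list medians of 3.12 and 1.86 log2 units in continuous light and 3.19 and 2.56 in long days. The continuous-light criteria were met by 9 morning and 10 evening genes, and over all loci that met them 9.01% were members.

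HBI1 (AT2G18300, chromosome 2, 7952404 to 7954785, minus strand), a bHLH factor that promotes cell elongation, was at 11.8 to 44.9 FPKM (median 25.3) in continuous light, against 14.9 to 48.1 (median 31.4) in long days. Its highest continuous-light values were 44.9 at 8 h and 41.6 at 29 h and its lowest 11.8 at 41 h. In long days it was lowest at 2 h (14.9), and its second-day values from 29 to 35 h, 45.5 to 48.1, lay above every first-day value. The fitted peak in continuous light was at 6.015 ± 0.662 h with a range of 1.37 ± 0.237. The homeodomain leucine zipper gene HAT1, of a family known for shade responses, ranged from 3.83 to 15.8 FPKM in continuous light, against 7.57 to 21.3 in long days, with its 2 highest long-day values, 21.3 and 19.1, at 17 and 41 h. BZIP61 was at 9.32 to 31 FPKM in continuous light, against 11.6 to 32.5 in long days, lowest there at 2 and 26 h. HAT1 and BZIP61 were no longer members with FPKM as deposited. GRH1, also named AFB1, an auxin receptor F-box gene, had a range of 0.722 and a peak at 7.998 h. None of the 12 growth hormone and elongation genes kept was a member. Of these, 5 met the continuous-light criteria, and over all loci that met them 9.01% were members.

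Hormone and stress regulators were spread over the day. JAZ6, a repressor of jasmonate responses, was at 5.59 to 16.2 FPKM (median 8.37) in continuous light, against 7.12 to 13.4 (median 10.2) in long days. It peaked at 5.375 ± 0.641 h with a range of 0.99 ± 0.167, and its long-day range was 0.10 ± 0.196. The cytokinin response factor CRF6 was highest at 14 h (12.1 FPKM) and 35 h (11.9) in continuous light, and in long days stood apart at 38 h with 28.6 FPKM, against 7.03 to 17 in the other 15 libraries. ABI1, a protein phosphatase that represses abscisic acid signalling, peaked at 13.36 h in continuous light and was at 54.2 to 118 FPKM in long days, where its highest values were 110 and 118 at 2 and 26 h. ALDH7B4, a stress-inducible aldehyde dehydrogenase, was at 75.8 to 275 FPKM in continuous light, against 202 to 395 in long days. JAZ6 was the member among 19 defence and jasmonate genes kept, of which 5 met the continuous-light criteria. Over all loci that met these criteria 9.01% were members.

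Members with roles in carbon metabolism included ADG1, BAM2 and TPS8. ADG1 (AT5G48300, chromosome 5, 19570238 to 19572804, plus strand), the small subunit of the enzyme that makes ADP-glucose for starch, was at 111 to 197 FPKM (median 153) in continuous light, against 59 to 102 (median 81.4) in long days. All 16 continuous-light libraries of ADG1 were above all 16 long-day ones. ADG1 was no longer a member with FPKM as deposited, after quantile normalization or with a larger value added to FPKM before the log. BAM2, a plastid beta-amylase of the enzyme family that breaks starch down, was at 9.75 to 21.9 FPKM in continuous light (median 13.8) and at 6.72 to 13.2 in long days (median 8.85). Their ranges in continuous light were 0.72 ± 0.0704 and 0.78 ± 0.0751, with peaks at 23.62 ± 0.372 h and 20.25 ± 0.368 h. ADG1 was the member among the 20 starch genes kept, of which 8 met the continuous-light criteria and 7 had a range of at least 0.7 in both regimes. BAM2 was not matched in that list because its symbol is shared by another gene. TPS8, a trehalose phosphate synthase-like gene of the class that lacks clear enzyme activity, was at 14.1 to 34.2 FPKM (median 25.4) in continuous light, against 26.5 to 77.6 (median 48.6) in long days. It peaked at 6.458 ± 0.445 h with a range of 1.11 ± 0.129, and was no longer a member with FPKM as deposited. TPS8 was the member among 15 dark and sugar starvation genes kept, of which 7 met the continuous-light criteria. Over all loci that met these criteria 9.01% were members.

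**Figure D3:**
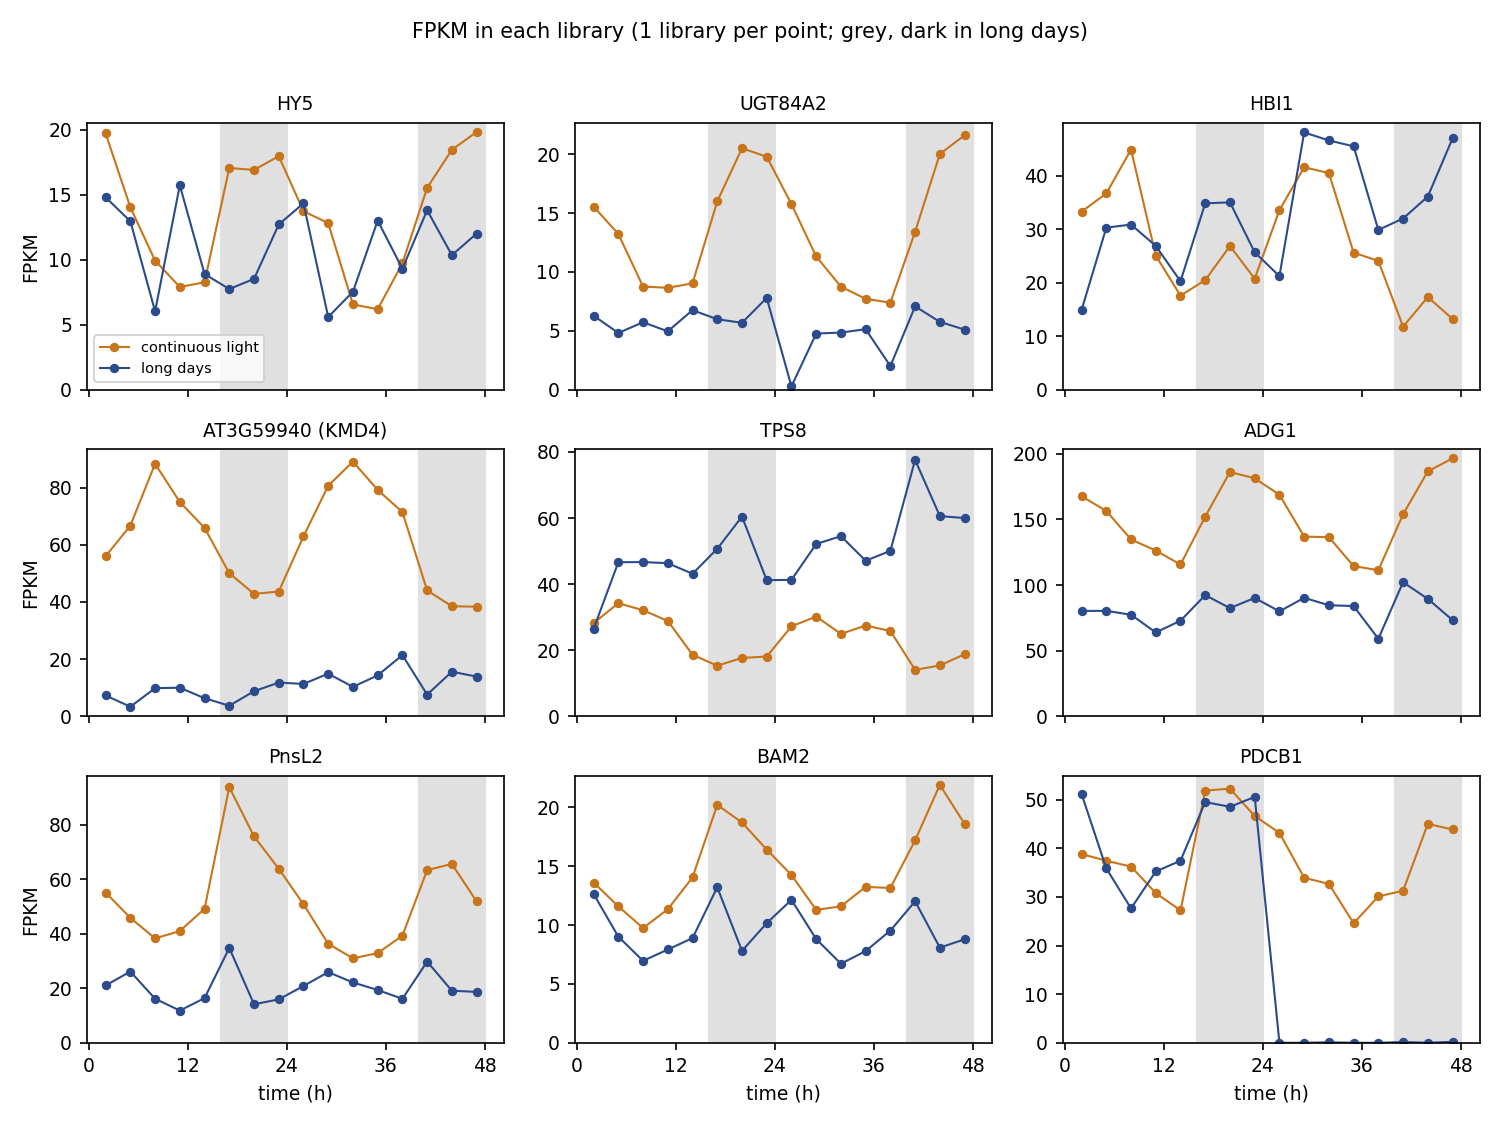
FPKM in each library (y axis, from 0) against time (x axis, h) for 9 members in continuous light (orange) and long days (blue); each point is 1 library and grey bands are dark hours of long days. HY5, UGT84A2, ADG1, PnsL2 and BAM2 are high in the subjective night of continuous light, HBI1, AT3G59940 and TPS8 in its day, and PDCB1 in long days is near 0 from 26 h on.

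PnsL2, a subunit of the chloroplast NDH complex of cyclic electron flow, was at 31 to 93.9 FPKM (median 50.1) in continuous light, against 11.8 to 34.9 (median 19.3) in long days. It was highest at 17 h in both regimes on the first day, at 93.9 and 34.9 FPKM, and in long days it was back at 14.2 by 20 h while in continuous light it was still at 75.8. EMB3119, the ribose 5-phosphate isomerase of the Calvin cycle and pentose phosphate pathway, was at 126 to 295 FPKM in continuous light, against 75 to 140 in long days. ACP4, an acyl carrier protein of plastid fatty acid synthesis, was at 87.3 to 266 FPKM and 59.5 to 189, with a peak at 2.324 h. In long days ACP4 lies in a merged assembled gene whose other transcripts averaged 252.6 FPKM, and with all transcripts of that gene summed it was no longer a member. PDF1B, a plastid peptide deformylase, peaked at 22.65 h, and AT4G38100 at 17.68 h. None of the 18 light harvesting genes kept was a member. The 14 that met the continuous-light criteria all had a range of at least 0.7 in both regimes, and over all loci that met them 9.01% were members.

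The ATP sulfurylases APS1 and APS3, which activate sulfate, peaked within 0.1 h of each other, at 1.324 ± 0.281 h and 1.252 ± 0.671 h, with ranges of 0.88 ± 0.0644 and 0.90 ± 0.158. APS1 was at 146 to 289 FPKM in continuous light, against 123 to 222 in long days, and APS3 at 5.69 to 14.5 and 5.16 to 10.8. They were 2 of the 29 sulfur and nitrogen genes kept, and as copies of one family they can share reads. Of the 29, 6 met the continuous-light criteria, and over all loci that met them 9.01% were members. SAHH2, which recycles S-adenosylhomocysteine after methylation, was at 57.4 to 123 FPKM and 37.7 to 81.8. UGT84A2 (AT3G21560, chromosome 3, 7595680 to 7597607, plus strand), a glucosyltransferase of sinapate, was at 7.39 to 21.6 FPKM (median 13.3) in continuous light, against 0.278 to 7.8 (median 5.41) in long days. Every continuous-light library of UGT84A2 except those at 35 and 38 h lay above the highest long-day one. Its range of 1.36 ± 0.0981 had an R squared of 0.936, with a peak at 22.7 ± 0.276 h. Its lowest long-day values were 0.278 FPKM at 26 h and 2 FPKM at 38 h. UGT84A2 was no longer a member with FPKM as deposited, after quantile normalization or with assembled transcripts at its locus added. Its paralog UGT84A3, at 10.4 to 26.7 FPKM and 12.9 to 26.4, peaked at 13.38 h, and reads shared between the copies could not be checked. None of the 18 phenylpropanoid and flavonoid genes kept and none of the 21 glucosinolate genes kept was a member. Of these, 8 and 10 met the continuous-light criteria, and over all loci that met them 9.01% were members. So few genes can lack a member by the draw alone. UGT84A2 and the acyltransferase genes AT1G03940 and AT1G03495 are not on the phenylpropanoid list.

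The F-box gene AT3G59940 (KISS ME DEADLY 4, chromosome 3, 22142856 to 22144439, plus strand) belongs to a family that marks phenylalanine ammonia-lyases and cytokinin response regulators for breakdown. It was at 38.3 to 89.1 FPKM (median 64.4) in continuous light, against 3.32 to 21.4 (median 10.1) in long days, with no overlap between the regimes. Its peaks in continuous light, 88.3 FPKM at 8 h and 89.1 at 32 h, were nearly equal, and the fitted peak was at 8.322 ± 0.275 h with a range of 1.16 ± 0.0834. An annotated locus on the other strand, AT3G09275, overlaps AT3G59940 over 1389 bases and averaged 1.58 FPKM in continuous light and 24.68 in long days. The strandedness of the libraries is not known, so reads of the 2 loci may not be told apart. Under the same limit AT1G23050 and AT1G23052 cover the same 825 bases on opposite strands and have the same values in every continuous-light library (4.38 to 18.1 FPKM), so these 2 members are not independent. In all, 26 members overlap another annotated locus.

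Other members came from many parts of metabolism and gene regulation. RSR4 (PDX1.3), an enzyme of vitamin B6 synthesis, was at 60.4 to 112 FPKM (median 82.6) in continuous light, against 59.9 to 95.3 (median 77.2) in long days. Its 6 libraries of the subjective night, 104 to 112 FPKM, were all above its other 10, and it was 1 of 5 members with an R squared of at least 0.9. The others were UGT84A2, AT3G59940, AT5G28300 and APS1. AT1G03940 and AT1G03495, a related pair of acyltransferases of anthocyanin modification, peaked at 22.81 and 22.03 h with ranges of 0.943 ± 0.125 and 0.773 ± 0.133. The cytochrome P450 genes CYP81H1 and CYP81D5 lie 274 bases apart on chromosome 4, peaked at 0.377 and 20.3 h, and share sequence as members of one family. FDH, the mitochondrial formate dehydrogenase, was at 99.3 to 252 FPKM in continuous light, highest at 11 and 38 h, and at 170 to 277 in long days. NRP1, a histone chaperone, peaked at 14.94 h and was at 55.8 to 137 FPKM in continuous light, against 85 to 144 in long days. CBSX3, a mitochondrial redox regulator, was at 50.6 to 132 FPKM in continuous light, and in long days at 23.6 to 45.7 except for 79.2, 133 and 122 at 2, 35 and 44 h. The hemoglobin gene HB2, the homeodomain gene BLH4 and the calmodulin-binding gene iqd17 were day-peaking, at 9.496, 8.372 and 5.42 h. SOT12, a sulfotransferase of brassinosteroids and salicylate, peaked at 10.47 h and reached 73.8 FPKM in long days against 35 in continuous light. Of the 77 members 9 are annotated as uncharacterized proteins and AT1G23052 has no product named, and members lie on all 5 chromosomes, with 20, 8, 18, 17 and 14 on chromosomes 1 to 5.

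Some of the largest ranges came with values that jump between libraries. AT5G12240, an octanoyltransferase of lipoate synthesis, had the largest fitted range (4.085 ± 0.836). In continuous light it was at 9.37 to 18 FPKM at 5, 8, 26, 29 and 32 h and at 0 to 1.24 in the other 11 libraries, and in long days at 1.56 to 20.9. There it was high on both days at 14 and 38 h (17.5 and 11.9 FPKM) and at 23 and 47 h (19.1 and 20.9), low on both at 17 and 41 h (2.33 and 2.58) and at 20 and 44 h (2.82 and 2.74), and unlike between the days at 2 and 26 h (10.9 and 2.69). It lies in a merged assembled gene in both tables, where other transcripts averaged 108.5 and 165.4 FPKM, and overlaps the tubulin gene TUB6 by 83 bases. With all transcripts of that assembled gene summed AT5G12240 was no longer a member. AT2G27900, a coiled-coil protein gene, was at 13.1 to 21.6 FPKM in continuous light except at 20, 23, 44 and 47 h, where it was at 0.859 to 4.64, and at 19.2 to 24.6 in all long-day libraries. Transcripts assembled at the AT2G27900 locus averaged 5.638 FPKM in continuous light, and it was no longer a member when they were added. TTN1, a tubulin-folding cofactor gene, was at 1.34 to 9.86 FPKM in continuous light, against 8.99 to 14.2 in long days, and was also lost from the members in that way. The GT-2-like factor gene AT5G28300 had the highest R squared of the members (0.946) and values of 8.7 to 18.1 FPKM in continuous light, whereas its long-day values ran from 0 to 10.5. With the assembled transcripts at its locus, 3.635 FPKM on average in long days, added, AT5G28300 was no longer a member either. The carbonic anhydrase gene ACA1 was at 7.09 to 65.8 FPKM in continuous light, against 4.2 to 35.7 in long days, and it too was no longer a member with assembled transcripts added. AT5G19190, of unknown function, was at 3.46 to 41.7 FPKM in continuous light, with most of its highest values on the first day, and at 20.6 to 44.7 in long days. In long days it lies in a merged assembled gene whose other transcripts averaged 67.56 FPKM. AT5G19190 was no longer a member with all transcripts of that gene summed or with FPKM as deposited. Other large ranges were those of the PQ-loop membrane protein gene AT4G36850 (13.8 to 71.3 and 55.2 to 136 FPKM), of AT3G56360 (35.3 to 122 and 30.2 to 59.5) and of AT5G22020 (14.6 to 38.4 and 11.7 to 32). All of these were lost from the members with FPKM as deposited. AT4G36850 was also lost after quantile normalization, and AT3G56360 and AT5G22020 with a smaller value added to FPKM before the log. The part of transcript assignment in these patterns was not tested.

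Night-peaking members stood at lower levels in long days than in continuous light. The mean log2 level was lower in long days in 38 of the 39, with a median difference of -0.64, and TTN1 was the exception. ADG1, UGT84A2, PnsL2 and SAHH2, described above, are among the 38. Of the 37 day-peaking members, 26 were higher in long days, with a median difference of 0.19. The loci that cycled in both regimes showed the same order, with 241 of 276 night-peaking loci (87.3%, median -0.49) and 157 of 269 day-peaking loci (58.4%, median -0.09) lower in long days. Over all kept loci 48.68% were lower. The green shoot markers were lower in long days too, with a median sum of 14097.6 FPKM in continuous light against 8122.1 in long days, and their part in the members' levels was not tested. With all transcripts of each assembled gene summed, an alternative chosen after seeing the data, 32 of the 39 night-peaking members were lower, against 57.4% of all kept loci.

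**Figure D4:**
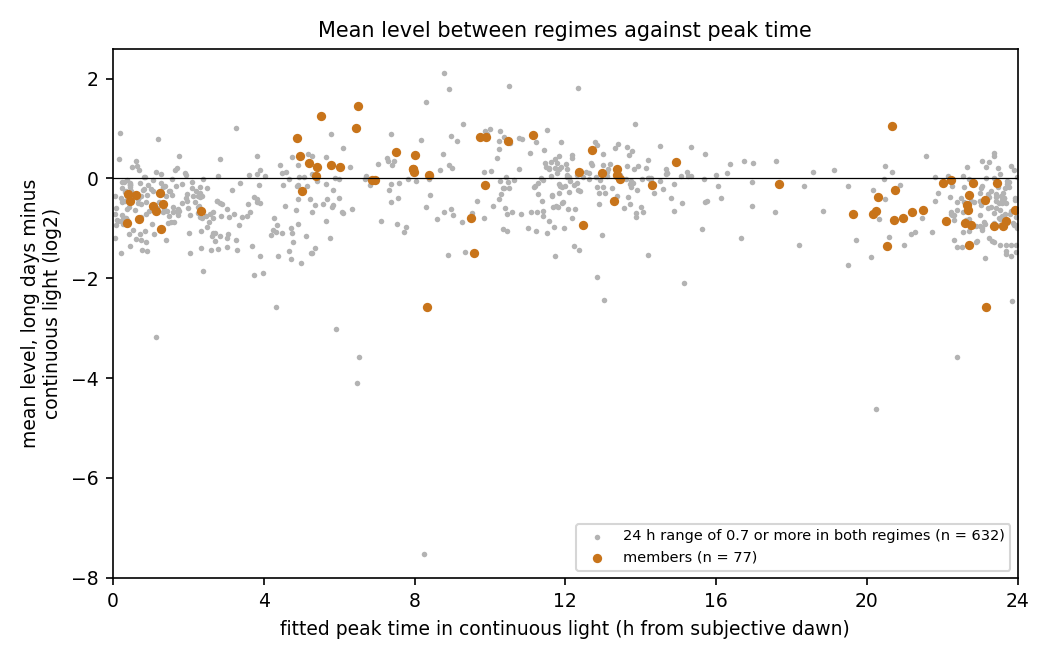
Mean level in long days minus that in continuous light (y axis, log2 units) against the fitted peak time in continuous light (x axis, h) for the 77 members (orange) and the 632 loci that cycled in both regimes (grey). Night-peaking members lie below 0 in 38 of 39 cases, and the other members lie on both sides of it.

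Night-peaking members were mostly higher at 17 h than at 14 h in both regimes, but in long days most were lower again at 20 h. From 14 to 17 h, across lights-off at 16 h, their median step was 0.437 log2 units in continuous light and 0.352 in long days. From 17 to 20 h it was 0.29 in continuous light, upward on both days in 28 of 39, and -0.403 in long days, downward on both days in 29 of 39. Over all kept loci 33.2% stepped down on both days in long days, and among night-peaking loci that cycled in both regimes 145 of 276 did (52.5%, median step -0.18). Those loci had a median step of 0.827 from 23 to 26 h in long days, across the 1 dawn with a library on each side, upward in 89.5%, where the night-peaking members had 0.273, upward in 26 of 39 (66.7%). Their long-day medians by hour of day thus had a pair of maxima, 0.238 at 17 h and 0.18 at 2 h, with -0.172 at 14 h and -0.064 at 20 h around the first. These steps are descriptions, since the long-day 24 h fit that chose the members used the same libraries.

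Counted by hour of day, 22 of the 77 members (28.6%) had their highest long-day mean at 17 h and 19 (24.7%) at 2 h, against 14.4% and 15.8% of all kept loci. At 17 h and again at 41 h, 23 members (29.9%) were over 0.2 log2 units above their own long-day mean, against 11.4% of all kept loci and 22.3% of the loci cycling in both. Of these 23, 15 were night-peaking, among them PnsL2, AT1G62780, BAM2, EMB3119 and SAHH2, and 8 were day-peaking, among them HAT1, the TPR gene AT2G47440, BZIP61 and TCP11, all named after their values were seen. AT2G47440 was at 54.8 and 43.2 FPKM at 17 and 41 h and at 19.8 to 32.2 in the other 14 long-day libraries. BAM2 was at 13.2 and 12 FPKM at these hours and at 7.81 and 8.09 at 20 and 44 h. In 5 members, AT5G22020, AT1G27480, BAM2, EMB3119 and SAHH2, the values at 2 and 26 h were over 0.2 above the mean as well. Of the 37 day-peaking members, 15 had their lowest long-day mean at 2 h, as TCP11, HBI1 and BZIP61 did. This hour was also the lowest for 2660 of all 11357 kept loci, more than any other hour, and for 143 of the 632 loci cycling in both. The long-day median of the day-peaking members was -0.099 at 2 h and between -0.056 (17 h) and 0.104 (8 h) at the other hours.

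**Figure D5:**
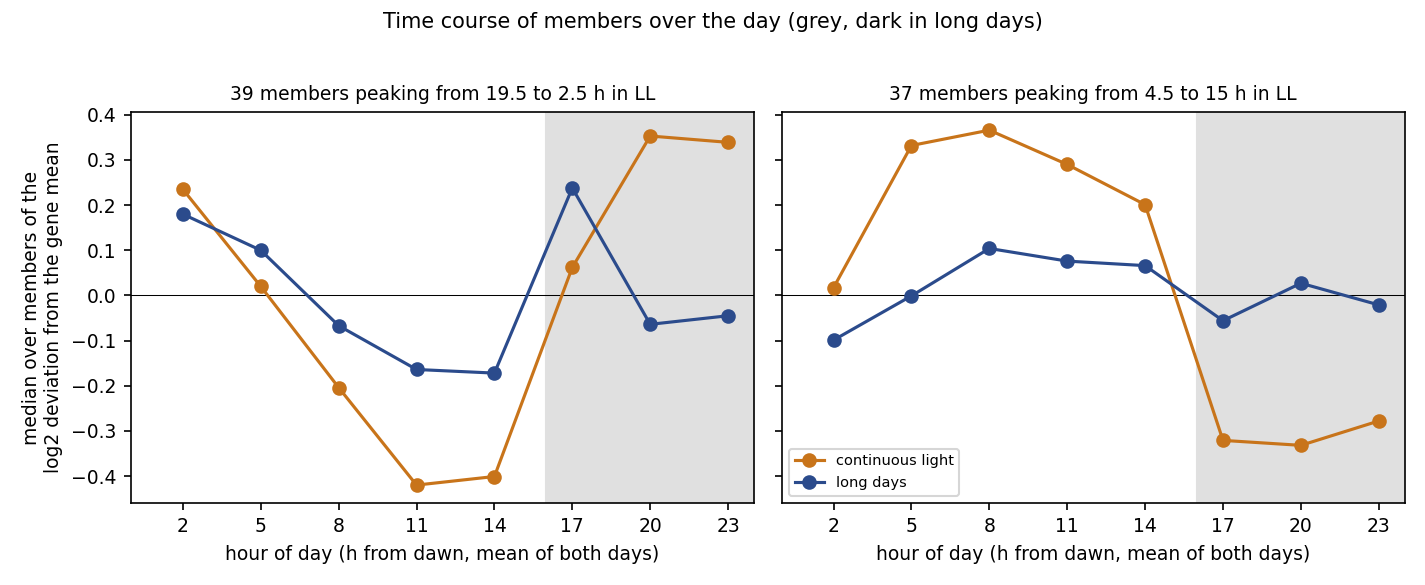
Median over members of the log2 deviation from the gene mean (y axis) by hour of day (x axis, h, mean of both days) for 39 night-peaking (left) and 37 day-peaking members (right) in continuous light (orange) and long days (blue); grey marks the dark hours of long days. In long days the night-peaking median is 0.238 at 17 h and -0.064 at 20 h, while in continuous light it goes from 0.062 to 0.353.

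Whether members varied at a shorter period in long days was tested with limma, as a 12 h cosine and sine beside the 24 h terms, which is independent of the rule. No member passed at an adjusted p under 0.05 (Benjamini-Hochberg over all loci), where 95 of 11357 loci did (0.836%). Unadjusted, 30 members (38.96%) were under 0.05 against 20.18% of all loci and 57.44% of the loci cycling in both, and the median 12 h range was 0.441 log2 units in members, 0.255 in all loci and 0.609 in the loci cycling in both. Closest to the threshold was BAM2, with a 12 h range of 0.574 ± 0.116 and fitted maxima at 3.12 and 15.1 h (limma adjusted p = 0.0646). AT4G38100 followed with 0.539 ± 0.109 and maxima at 2.06 and 14.1 h (limma adjusted p = 0.0653). Next were NRP1, PnsL2 and AT3G07350, with 12 h ranges of 0.362 ± 0.0796, 0.851 ± 0.21 and 0.431 ± 0.113 and limma adjusted p-values from 0.0777 to 0.113. When all components shorter than 24 h were tested together, an alternative chosen after seeing the data, 6 members passed, against 415 of all loci (3.65%). They were AT4G38100, BAM2, SAHH2, AT5G22020, AT3G07350 and AT2G47440, with limma adjusted p-values from 0.00617 to 0.0324, so their long-day values depended on the hour in a way that the 24 h curve does not hold. With each long-day library left out in turn, AT4G38100 and BAM2 kept their calls in all 16 fits. SAHH2 lost its call without the 2 h library (adjusted p = 0.0517), AT5G22020 without the 2 or the 26 h library (highest 0.0747), AT3G07350 in 9 of the fits and AT2G47440 in 12. For BAM2 hour of day held 96.9% of the variance in long days. The median of that share was 61.5% in members, 62.87% in all loci and 91.97% in the loci cycling in both.

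The second day of long days differed from the first in 4 members (5.195%), against 1124 of 11357 loci (9.9%), by limma with the 24 h terms in the fit; at an unadjusted p under 0.05 it was 13 members (16.88%) and 23.77% of all loci. PDCB1, a callose-binding protein gene of plasmodesmata, was at 27.6 to 51.2 FPKM in the 8 libraries of the first day and at 0.0028 to 0.209 in those of the second, and its fitted difference was -5.27 ± 0.106 (limma adjusted p = 2.41e-13). In continuous light PDCB1 was at 24.6 to 52.2 FPKM on both days. In the long-day table PDCB1 lies in a merged assembled gene whose other transcripts averaged 30.64 FPKM. With all transcripts of that gene summed the PDCB1 call was kept at a much weaker level (limma adjusted p = 0.00863), for which no size is given here. The part of transcript assignment in the difference was not tested. PDCB1 was no longer a member in that setting, with FPKM as deposited, or with a smaller or larger value added to FPKM before the log. It stayed a member in 13 of 32 fits with a library left out. ACA1 was at 12.6 to 35.7 FPKM on the first day and 4.2 to 12.1 on the second, with no overlap (-1.14 ± 0.241, limma adjusted p = 0.00787), and the call was lost (limma adjusted p = 0.886) when the transcripts assembled at its locus, 10.65 FPKM on average, were added. The non-coding gene AT2G26355 was lower on the second day (-0.475 ± 0.117, limma adjusted p = 0.0187), at 51.2 to 104 FPKM against 80.8 to 141 on the first. AT3G59940 was higher, at 7.57 to 21.4 FPKM against 3.32 to 11.8 (0.849 ± 0.248, limma adjusted p = 0.0447). The AT3G59940 call was lost in 12 of 16 fits with a library left out, with adjusted p-values of 0.0257 to 0.0865, while those of PDCB1, ACA1 and AT2G26355 were kept in all 16. With all transcripts of its assembled gene summed the AT3G59940 call was lost as well (limma adjusted p = 0.0506). In a fit that pairs the days by hour, with time of day as 8 levels in place of the 24 h terms, 11 members passed (14.3%) against 1918 loci (16.9%). They were these 4 and HBI1, TPS8, EMB3119, GRH1, PDF1B, AT1G27480 and AT4G23820, all 7 higher on the second day, by 0.186 ± 0.0404 (PDF1B) to 0.584 ± 0.0975 (AT4G23820) with limma adjusted p-values from 0.00573 to 0.0247. In continuous light the 77 members had a median range of 0.853 on the first day and 0.939 on the second, when fitted day by day.

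The share of a gene's isoforms, which the rule did not use, gave no call. For 21 members with isoforms at 5 to 95% of the gene, a 24 h rhythm of the isoform share was tested by limma in each regime. No member passed in either, and neither did any other locus, with 0 of 3649 loci called in long days (0%) and 0 of 3493 in continuous light (0%). At an unadjusted p under 0.05 there were 0 of 21 members and 371 of 3649 loci in long days. In continuous light there were 4 of 21 members and 291 of 3493 loci. The 4 were AT5G12240, HBI1, PLPB and JAZ6, of which HBI1's first isoform held 45.6% of the gene and ran from 0.34 to 29.3 FPKM in continuous light. Where a gene is near 0 FPKM, the 0.5 added to both parts draws the usage value to 0. AT5G12240 was at 0 to 1.24 FPKM in most continuous-light libraries, and its second isoform's usage peaked at 5.471 h, near the gene's 5.529 h. Its usage value is thus not independent of the gene rhythm that the rule used.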

How the data were processed

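RNA-seq was done by the study's authors on seedlings of both light regimes, 16 libraries each. The authors deposited FPKM per transcript and library in 1 table per regime, per the file headers, with transcripts named by locus or assembled from the reads. Per the submitters' processing notes the genome build was TAIR10. For aligner, quantifier and strandedness: not given in the sources used here.

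Annotated transcripts were summed per locus and moved to log2(FPKM + 1) from the deposited FPKM, minus the library median over kept loci. Folds of weakly expressed genes are thereby understated. Of 32031 nuclear loci in both tables, 11357 passed the mean of 5 FPKM, as all 77 members did by the rule. Ranges, peaks and standard errors come from least-squares fits over 16 libraries per regime. Tests used limma 3.58.1 in R 4.3.3 (lmFit, eBayes with trend), Benjamini-Hochberg over all loci or isoforms, and were tested on simulated data. Isoform usage was log2 of (isoform FPKM + 0.5) over (rest of locus + 0.5). Positions, sequences and symbols are those of RefSeq TAIR10.1, in which all 77 members were found. Tables were made with Python 3.11.15 and pandas 2.3.3.

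The members and gene lists were chosen with earlier results of these data known. Genes were named by rule: the 20 largest ranges, list members, the smallest p-values of each test, threshold neighbours and the first member per motif. Others are said to be chosen after their values were seen, or named for their function only. Gene lists without a member beyond those given in the text were cold, heat shock, cell cycle, redox, cell wall, lipid, aquaporin, SR splicing, RNA-binding, reference and marker genes.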

Additional observations from a re-analysis of the deposited data

How the results depend on the processing

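The number of members was 63 to 106 under other scalings, pseudocounts, a minimum of 1 FPKM, assembled transcripts added or a free period. It was 34 with a minimum of 20 FPKM and 124 with an adjusted p in place of R squared. With all transcripts of each assembled gene summed, an alternative chosen after seeing the data, it was 114, and only 51 of the 77 were among them. Of the 77, 53 remained with FPKM as deposited, 68 after quantile normalization and 58 with assembled transcripts at the locus added, and 36 remained under all 3. Leaving out 1 library gave 61 to 105 members, with 11 kept in all 32 such fits. The counts of night-peaking members that were lower in long days (38) or stepped down after dusk (29) became 32 to 37 and 23 to 28 under added alternatives, and the 23 high at 17 and 41 h became 17 to 26.

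Loci called for the 12 h component (95) were 55 after quantile normalization, 59 with a minimum of 1 FPKM, 223 with assembled transcripts added, 457 with whole assembled genes summed and 415 with all shorter components tested together. Members called there were 1 with a minimum of 20 FPKM, 2, 4 and 6 in the last 3 settings. Leaving out 1 library gave 13 to 193 loci and 0 to 1 member (1 without the 35 h library). For the second day against the first (1124 loci, 4 members), loci were 1788 with a minimum of 1 FPKM, 671 and 2 members with 20 FPKM, and 1918 loci and 11 members with time of day as 8 levels; leaving out 1 library gave 840 to 1346 loci and 3 to 7 members (7 without the 26 h library). Isoform calls, 0 in both regimes, were 8 loci in each with 2 FPKM added, and 0 to 1 locus on leaving out a library in continuous light. The causes were not tested.

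No paired analysis was possible because no test compared the regimes, whose tables were normalised apart; within long days, the fit with 8 levels pairs the days by hour. Read depth is unknown.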
